A study of Mus musculus with 6 samples.

Results

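The genes described here are CIITA, the master activator of the MHC class II genes, and 7 genes of the class II antigen presentation machinery: CD74, HLA-DRA, HLA-DRB1, HLA-DPA1, HLA-DPB1, HLA-DMA and HLA-DMB. They were picked out by their Ensembl identifiers; the rule sets no condition on their values, although the set was chosen with earlier results of these data known. They are 8 of the 62492 gene rows of the deposited table. All 8 passed the filter for testing, a mean of at least 1 FPKM (fragment numbers divided by gene model length and by library total) over the 6 libraries, which left 12578 genes in all.

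RNA sequencing was done on A375, an established human melanoma cell line, in 3 groups of 2 libraries. Cells of every group, controls included, had been transduced with lentivirus carrying Cas9 and a guide RNA, selected with 10 µg/mL puromycin and collected 7 days after selection. The guides targeted ABCE1, YAE1 or, in the controls, LacZ or Luciferase, which are not human genes; no group had a guide against another human gene. ABCE1 is an iron-sulfur ATPase that splits ribosomes after termination, and YAE1 works with LTO1 to load its cluster, and the series title links the LTO1 complex to nonsense-mediated decay and to MHC class I. Whether both libraries of a group share a guide or a culture, and whether cells were cloned after selection, is not in the labels, so p-values here rest on a spread between libraries that may be technical. The organism field names the mouse, whereas the cell type field says human melanoma and the processing notes name a human build. Groups were read from the titles, because replicate 2 of ABCE1 and of YAE1 has a genotype entry with a gene name ending in 2. The symbols of the 8 genes come with their identifiers; mouse gene tables were the reference at hand, and 0 identifiers matched them. The targeted genes, markers of melanoma cells and of antigen-presenting immune cells were thus not analysed here, nor were other genes of the class II pathway or positions in the genome.

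MHC class II molecules display peptides from endosomes to CD4+ T cells. Each is a pair of an alpha and a beta chain that is assembled on the invariant chain CD74, whose remnant CLIP fills the peptide groove until HLA-DM exchanges it for antigenic peptide. CIITA does not bind DNA itself but is recruited to class II promoters by RFX, NF-Y and CREB proteins. B cells, dendritic cells and macrophages express class II constitutively, most other cells only after interferon-gamma has induced CIITA, and some melanomas do so without it.

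Library totals worked out from the values ranged from 15713011 fragments (ABCE1 replicate 1) to 18399718 (control replicate 1). Replicates of a group correlated at r = 0.992 to 0.994 across the log2 values of 12578 genes. By fragment numbers the YAE1 replicates differed most. The chi-square per gene between replicates, with numbers expected from the library totals, was 5.56 for YAE1, 2.47 for the controls and 2.81 for ABCE1.

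Class II genes were already abundant in the control cells. HLA-DRA, the alpha chain of HLA-DR, ranked 64 among the 62492 gene rows by mean control FPKM, and CD74 ranked 121. HLA-DRB1 ranked 501, HLA-DPA1 860 and HLA-DMA 2463, while HLA-DPB1 (6440), CIITA (7998) and HLA-DMB (8374) stood far lower. With ABCE1 guides HLA-DRA moved to rank 27 and CD74 to 54, and with YAE1 guides to 34 and 67. The order of the levels within the set was HLA-DRA, CD74, HLA-DRB1, HLA-DPA1, HLA-DMA and HLA-DPB1 in all 3 groups, followed by CIITA and HLA-DMB. The libraries of neighbouring genes in that order did not overlap within a group, except for CIITA and HLA-DMB. These overlapped in the controls (3.40 and 3.62 against 2.85 and 3.45 FPKM), and with YAE1 guides HLA-DMB (6.30 and 6.10 FPKM) stood just above CIITA (6.06 and 6.07 FPKM). These levels are per length of the gene model, and the smallest lengths that make the values whole multiples of 0.5 fragments were 1244 bases for HLA-DRA, 1229 for HLA-DRB1 and 20757 for CIITA, so the level of CIITA is spread over a far longer model. HLA genes are also polymorphic, and HLA-DRB1 has near-identical gene copies among which fragments can be split, so its level is uncertain.

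**Figure D1:**
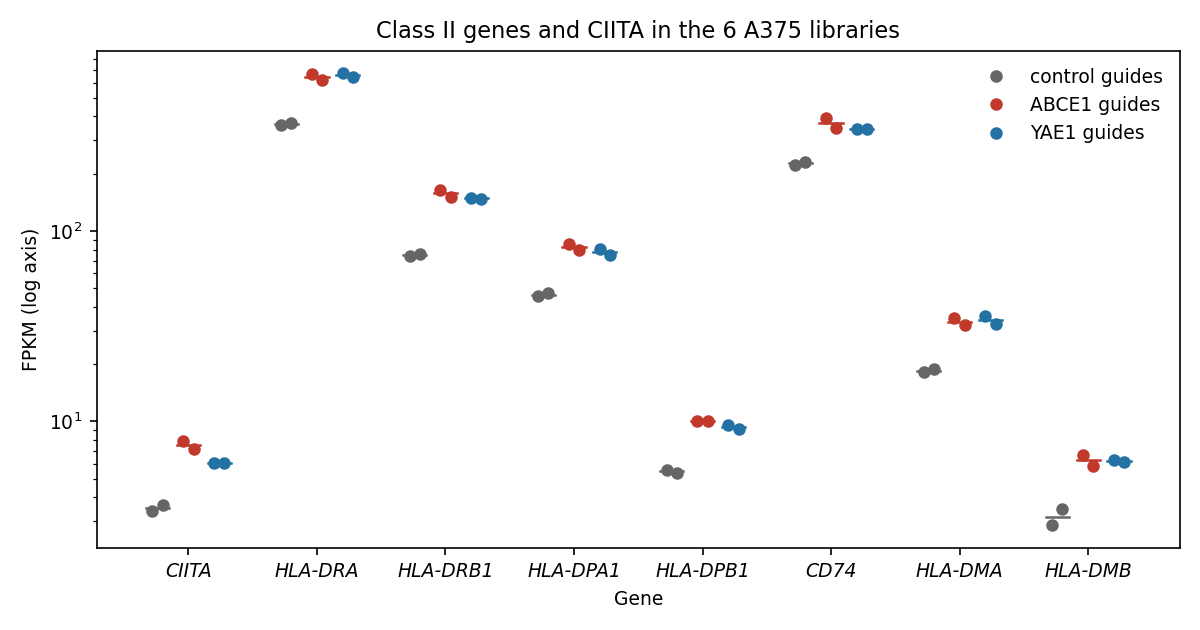
FPKM of the 8 genes (log axis) in each library; points are libraries and bars the means of 2. For each gene the 4 libraries with ABCE1 or YAE1 guides lie above both controls, from HLA-DMB at 2.85 to 6.63 FPKM to HLA-DRA at 362 to 674 FPKM.

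All 8 genes rose with ABCE1 guides and all 8 rose with YAE1 guides. In the comparison of ABCE1 guides with control guides 37.5% of all tested genes were called higher, and with YAE1 guides 34.2% (limma on log2(FPKM + 1), Benjamini-Hochberg adjusted p under 0.05 over 12578 genes). The log2 changes ran from 0.70 (CD74) to 1.07 (HLA-DRB1) with ABCE1 guides, with a median of 0.82 over the 8 genes and 0.098 over all tested genes. With YAE1 guides they ran from 0.60 (CD74) to 0.98 (HLA-DRB1), with medians of 0.77 and 0.096. Both comparisons use the same control libraries, so their results are not independent of each other. In each of the 8 genes both ABCE1 libraries and both YAE1 libraries exceeded both controls, which was also true of 50.6% of tested genes for ABCE1 guides and 49.8% for YAE1 guides. In bulk RNA, a change in the number of cells that express these genes and a change in RNA per cell cannot be told apart.

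CIITA (ENSG00000179583), the transactivator, was listed at 3.40 and 3.62 FPKM in the controls, 7.92 and 7.20 FPKM with ABCE1 guides and 6.06 and 6.07 FPKM with YAE1 guides. The 3 groups did not overlap, with the controls lowest and the ABCE1 libraries highest. HLA-DRB1, HLA-DPB1 and CD74 had the same order without overlap, and the share of all tested genes with this order was not counted. Mean abundance was 2.16-fold the control level with ABCE1 guides and 1.73-fold with YAE1 guides. The log2 change was 0.92 ± 0.066 (SE) for ABCE1 guides (limma adjusted p = 8.0e-05) and 0.65 ± 0.066 for YAE1 guides (limma adjusted p = 4.3e-04).

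HLA-DR is the class II molecule with the least variable alpha chain. Its alpha chain HLA-DRA (ENSG00000204287) stood at 362 and 368 FPKM in the controls, 672 and 621 FPKM with ABCE1 guides and 674 and 644 FPKM with YAE1 guides. The ABCE1 and YAE1 libraries overlapped each other and lay clear of the controls. Means rose 1.77-fold (log2 change 0.82 ± 0.051 SE, limma adjusted p = 4.5e-05) and 1.81-fold (0.85 ± 0.051, limma adjusted p = 6.5e-05). HLA-DRB1 (ENSG00000196126), a polymorphic beta chain that pairs with it, went from 74.0 and 75.9 FPKM to 165 and 151 FPKM with ABCE1 guides and 150 and 147 FPKM with YAE1 guides. On the log2(FPKM + 1) scale its changes were the largest of the 8 genes in both comparisons, 1.07 ± 0.052 (SE, 2.11-fold in means, limma adjusted p = 2.2e-05) and 0.98 ± 0.052 (1.98-fold, limma adjusted p = 5.2e-05). That rank depended on the scale: with voom on recovered fragments CIITA was above it with ABCE1 guides (1.11 against 1.07), and HLA-DMB level with it with YAE1 guides (0.99 each). Of all tested genes, 3.85% changed upward by more than HLA-DRB1 with ABCE1 guides and 2.41% with YAE1 guides.

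HLA-DP showed the same direction at lower levels. HLA-DPA1 (ENSG00000231389), its alpha chain, was at 45.4 and 47.4 FPKM in the controls, 85.1 and 79.9 FPKM with ABCE1 guides and 80.3 and 75.3 FPKM with YAE1 guides. This was 1.78-fold for ABCE1 guides (log2 change 0.82 ± 0.053 SE, limma adjusted p = 5.4e-05) and 1.68-fold for YAE1 guides (0.73 ± 0.053, limma adjusted p = 1.2e-04). HLA-DPB1 (ENSG00000223865), the beta chain, was at 5.57 and 5.39 FPKM in the controls, 10.0 and 10.1 FPKM with ABCE1 guides, and 9.57 and 9.09 FPKM with YAE1 guides. Every ABCE1 library was above every YAE1 library for HLA-DPB1, and all 4 were above the controls. The difference between YAE1 and ABCE1 guides was not called (-0.098, limma adjusted p = 0.20). How many of all tested genes separate these 2 groups in this way was not counted. Against control guides the log2 changes of HLA-DPB1 were 0.77 ± 0.053 (SE, limma adjusted p = 6.9e-05) and 0.67 ± 0.053 (limma adjusted p = 1.7e-04).

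CD74 (ENSG00000019582), the invariant chain, had the smallest log2 change of the 8 on the authors' scale and after centring. With quantile normalization it did not, at 0.91 with ABCE1 guides against 0.63 for HLA-DPB1, and at 0.62 with YAE1 guides against 0.54 for CIITA. It was listed at 223 and 231 FPKM in the controls, at 394 and 348 FPKM with ABCE1 guides and at 343 in both YAE1 libraries. Means were 1.64-fold the control with ABCE1 guides (log2 change 0.70 ± 0.061 SE, limma adjusted p = 1.6e-04) and 1.51-fold with YAE1 guides (0.60 ± 0.061, limma adjusted p = 4.3e-04). At least 19440 fragments stood behind each CD74 value, a counting error of at most 0.717%, so the gap between the ABCE1 libraries is wider than counting alone gives.

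HLA-DM, the peptide exchange factor, rose in both chains. HLA-DMA (ENSG00000204257) went from 18.1 and 18.8 FPKM in the controls to 34.8 and 32.1 FPKM with ABCE1 guides and to 35.7 and 32.6 FPKM with YAE1 guides. The groups with ABCE1 and YAE1 guides overlapped. The log2 changes of HLA-DMA were 0.82 ± 0.063 (SE, 1.81-fold in means, limma adjusted p = 9.7e-05) and 0.85 ± 0.063 (1.85-fold, limma adjusted p = 1.3e-04). HLA-DMB (ENSG00000242574) was the lowest of the set in the controls, at 2.85 and 3.45 FPKM, against 6.63 and 5.85 FPKM with ABCE1 guides and 6.30 and 6.10 FPKM with YAE1 guides. Its 241.5 and 280 control fragments carry counting errors of 6.43% and 5.98%, the largest in the set. Changes were 0.81 ± 0.091 (SE, limma adjusted p = 4.4e-04) and 0.80 ± 0.091 (limma adjusted p = 6.4e-04).

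**Figure D2:**
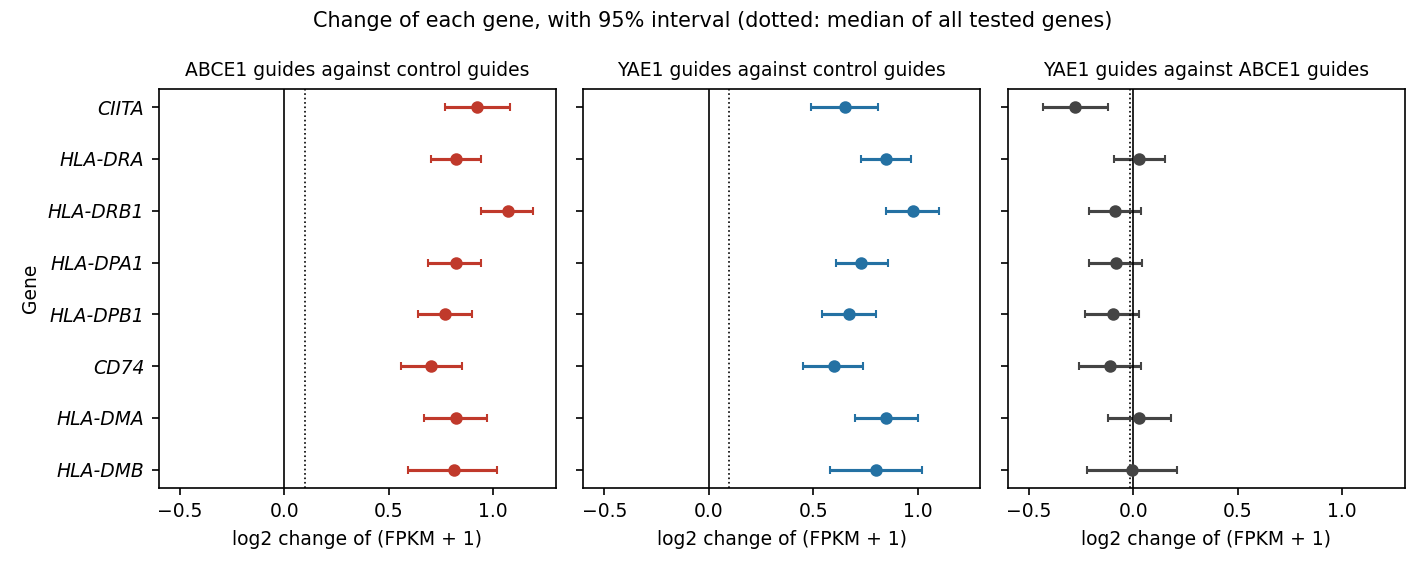
Log2 change of (FPKM + 1) for each gene in the 3 comparisons, as point estimates with 95% intervals from limma; the solid line is 0 and the dotted line the median of all 12578 tested genes. All intervals against control guides lie above 0, from 0.45 at the lowest (CD74, YAE1 guides), while between YAE1 and ABCE1 guides the interval of CIITA alone leaves out 0.

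Since so many tested genes were called higher, a size of change was also set, at 1.5-fold on the log2(FPKM + 1) scale, after the values had been seen. All 8 genes were called and reached this size with ABCE1 guides, as did 13.5% of tested genes. With YAE1 guides all 8 reached it too, against 9.29% of tested genes. The smallest of these changes, CD74 with YAE1 guides (0.60), lay just above the limit of 0.58. HLA-DRA, CD74, HLA-DRB1 and HLA-DPA1 are among the 777 genes that averaged 50 FPKM or more over the libraries. In that abundance class 7.72% of genes were called higher by at least 1.5-fold with ABCE1 guides and 7.34% with YAE1 guides, against 4 of these 4 genes in each comparison. HLA-DPA1 is in the class only through its libraries with ABCE1 or YAE1 guides, with means of 46.4 FPKM in the controls and 68.9 FPKM over all 6 libraries. Its place in this count is therefore not independent of its rise.

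The size of the changes depended on how libraries were scaled to each other, whereas the direction and the call against control guides were kept under centring and quantile normalization. Centring each library on its median gene lowered the median change of all genes to -0.04 with ABCE1 guides and -0.001 with YAE1 guides. On the authors' scale, with the median over all tested genes subtracted, the changes were 0.61 (CD74) to 0.97 (HLA-DRB1) with ABCE1 guides and 0.50 to 0.88 with YAE1 guides. After centring all 8 genes were still called higher in both comparisons, but 7 of 8 reached 1.5-fold with ABCE1 guides (all but CD74, against 8.84% of tested genes). With YAE1 guides 5 of 8 then did so (not CIITA, HLA-DPB1 or CD74, against 6.66%), and with quantile normalization 6 of 8 (not CIITA or HLA-DPB1, against 6.16%).

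**Figure D3:**
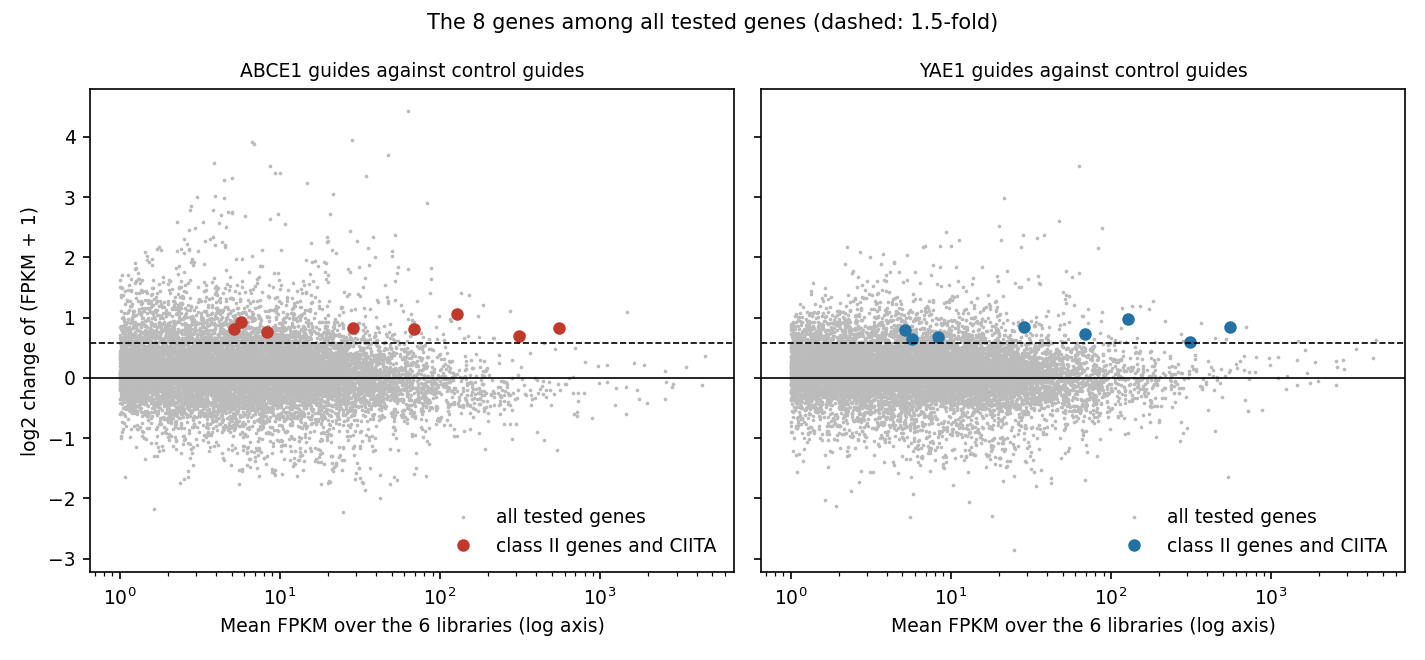
Log2 change against mean FPKM (log axis) for the 12578 tested genes (grey) with the 8 genes as coloured points; the dashed line marks 1.5-fold. The 8 points lie above the dashed line in both panels across the range of abundance, from HLA-DMB (mean 5.20 FPKM) to HLA-DRA (557 FPKM).

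In the direct comparison of YAE1 with ABCE1 guides CIITA was the 1 gene of the 8 that was called. It was lower with YAE1 guides, at 0.802 of the mean ABCE1 level (log2 difference -0.28 ± 0.066 SE, 95% interval -0.43 to -0.12, limma adjusted p = 0.022); 18.7% of all tested genes were called lower in this comparison. The call did not hold when ABCE1 replicate 1 was left out (difference -0.21, limma adjusted p = 0.12). Leaving out YAE1 replicate 1 gave -0.27 (0.066 for the limma adjusted p), leaving out YAE1 replicate 2 gave -0.28 (0.058), and testing all genes above 0 gave -0.28 (0.072). The other 7 genes did not pass the test. Their intervals were -0.092 to 0.15 for HLA-DRA, -0.21 to 0.036 for HLA-DRB1, -0.21 to 0.043 for HLA-DPA1 and -0.23 to 0.030 for HLA-DPB1. For CD74 the interval was -0.26 to 0.038, for HLA-DMA -0.12 to 0.18 and for HLA-DMB -0.22 to 0.21. Differences as large as these bounds could therefore be present. Under quantile normalization HLA-DRA turned to -0.30 (limma adjusted p = 0.0036), CD74 was at -0.29 (limma adjusted p = 0.0039) and HLA-DRB1 at -0.20 (limma adjusted p = 0.027), all called lower with YAE1 guides.

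Ratios of 2 genes within a library on the authors' FPKM scale are unchanged by any single factor applied to its FPKM values. Centring on the log2(FPKM + 1) scale is only close to such a factor, least so for low genes, and quantile normalization is not one. The ratios describe how far the 8 genes moved in step. The FPKM ratio of HLA-DRA to HLA-DRB1 was 4.88 and 4.84 in the controls, 4.06 and 4.11 with ABCE1 guides and 4.49 and 4.37 with YAE1 guides. It was lower in all 4 libraries with ABCE1 or YAE1 guides, and the ABCE1 libraries were lowest. For the DP chains the ratio of HLA-DPA1 to HLA-DPB1 was 8.15 and 8.79 in the controls, 8.48 and 7.94 with ABCE1 guides and 8.39 and 8.28 with YAE1 guides. The ratio of HLA-DMA to HLA-DMB was 6.36 and 5.45, 5.24 and 5.49, and 5.67 and 5.34 in the same order of groups. In both of these alpha to beta ratios the controls overlapped with each of the other groups. CD74 fell behind HLA-DRA, with ratios of 0.616 and 0.628 in the controls, 0.586 and 0.561 with ABCE1 guides and 0.509 and 0.533 with YAE1 guides, and the 3 groups did not overlap. HLA-DMA kept close to HLA-DRA, with ratios of 0.0501 and 0.0511, 0.0517 in both ABCE1 libraries, and 0.0530 and 0.0506 with YAE1 guides.

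Set against the activator, HLA-DRA stood at 106 and 102 times the FPKM of CIITA in the controls, 84.8 and 86.3 times with ABCE1 guides and 111 and 106 times with YAE1 guides. The ABCE1 libraries were thus below the other 4. CD74 stood at 65.6 and 63.8 times CIITA in the controls, 49.7 and 48.4 times with ABCE1 guides and 56.7 and 56.5 times with YAE1 guides, with no overlap between groups. HLA-DRB1 was 21.8 and 21.0 times CIITA in the controls and 20.9 and 21.0 times with ABCE1 guides, but 24.8 and 24.3 times with YAE1 guides. Under quantile normalization the order to CIITA turned: with ABCE1 guides HLA-DRA (1.12) and CD74 (0.91) had larger log2 changes than CIITA (0.79), and with YAE1 guides CD74 (0.62) had a larger one than CIITA (0.54). These ratios are descriptions: with 2 libraries in each group the smallest two-sided p of an exact permutation test is 0.333.

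**Figure D4:**
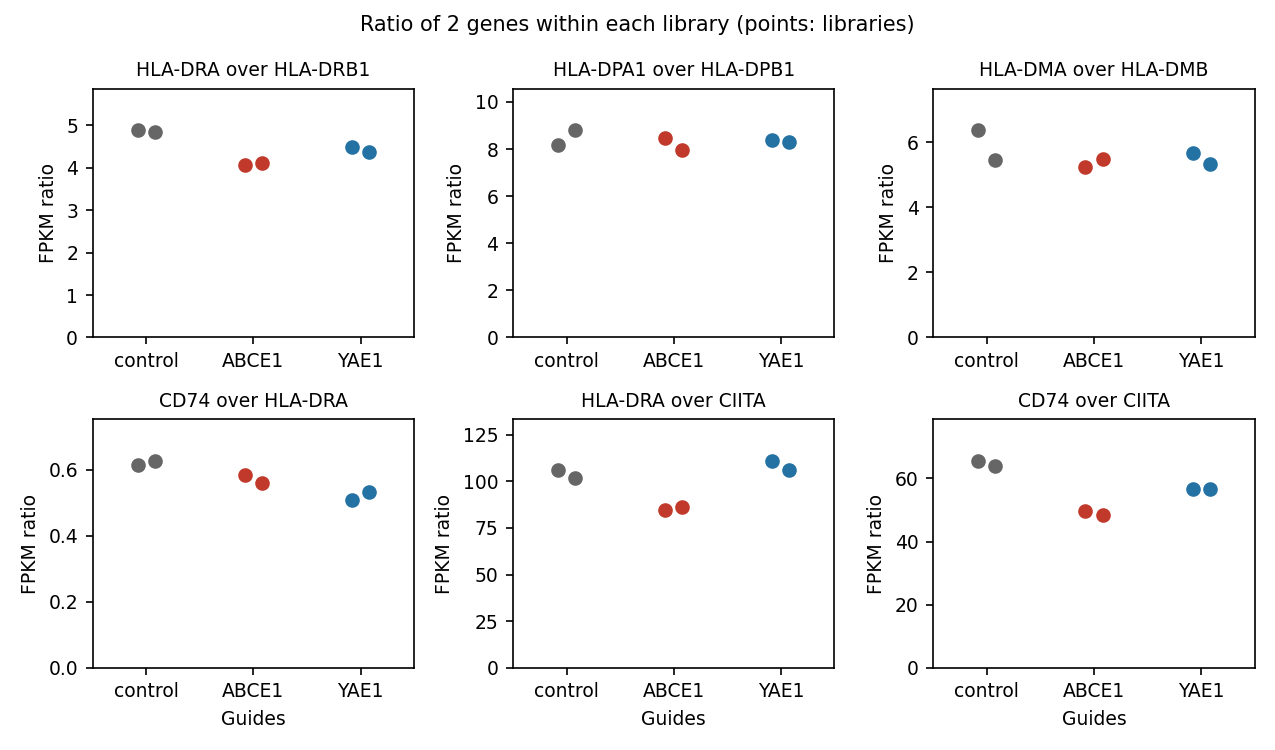
FPKM ratio of 2 genes within each library (points), by guide group, with axes from 0. The ratios of HLA-DRA to HLA-DRB1 and of CD74 to HLA-DRA and to CIITA are lower in all libraries with ABCE1 or YAE1 guides, while those of the DP and DM chains overlap between the controls and both other groups.

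HLA-DRA, the most abundant of the 8, was used to look for genes of like pattern. Over the 6 libraries, which fall into low controls and high libraries with ABCE1 or YAE1 guides, HLA-DMA had a Pearson r of 0.9988 with HLA-DRA on the log2(FPKM + 1) scale and ranked 2 among the 12577 other tested genes. HLA-DRB1 (0.9941) ranked 46, HLA-DPA1 (0.9918) 80 and HLA-DMB (0.9889) 144. HLA-DPB1 (0.9841) ranked 250 and CD74 (0.9804) 337, and CIITA (0.9465) came last of the 8 at rank 1178. Outside the set the highest values belonged to ENSG00000227076 (0.999), which went from 1.03 and 1.15 FPKM in the controls to 3.43 and 2.97 FPKM with ABCE1 guides and 3.45 and 3.08 FPKM with YAE1 guides, and to ENSG00000172046 (0.9981). The latter went from 19.9 and 20.4 FPKM to 27.8 and 27.3 FPKM with ABCE1 guides and 28.0 and 27.3 FPKM with YAE1 guides. Such values are common with 6 points in 2 levels: 1111 of the other genes had an r of at least 0.95 with HLA-DRA.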

How the data were processed

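The authors deposited 1 table of FPKM values per gene, named by human Ensembl identifier, with 1 column per library. Per the labels' protocols, 1 µg of RNA per sample was read as strand-specific 150 bp pairs; the submitters' processing notes name the build GRCh37, and for the aligner, counting program and annotation release the sources used here give no name. The fragments behind the FPKM were worked out from their steps: all 38269 genes above 0 were whole multiples of 0.5 fragments (tolerance 2e-05 steps), with a factor shared by all 6 values of a gene unknown. Counting errors are 1 over the square root of these numbers and cover counting only.

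Genes averaging 1 FPKM or more over the 6 libraries were tested on log2(FPKM + 1), a scale that understates changes of low genes, with limma 3.58.1 in R 4.3.3 (3 group means in 1 fit, eBayes with trend, Benjamini-Hochberg over 12578 genes, threshold 0.05). Degrees of freedom were 3 residual and 3.6 from moderation, and the scripts were tested on simulated data. The 8 genes and the lists were chosen with earlier results of these data known. All 8 genes are named; the genes of like pattern are the 2 of highest r with the most abundant of the 8. The 7 symbol lists were not used, since no identifier could be paired with a symbol. No promoter or protein sequence is printed, as no human sequence was at hand. Alternatives covered the pseudocount, filter, scaling, libraries in the fit, a replicate block, voom on the recovered fragments and each library left out; the 1.5-fold size and the class of 50 FPKM were added after the values were seen.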

Additional observations from a re-analysis of the deposited data

Results flagged for a closer look

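The change of CIITA differed between ABCE1 and YAE1 guides: its log2 change against control guides was 0.92 for ABCE1 guides and 0.65 for YAE1 guides. Both YAE1 libraries were below both ABCE1 libraries, as they also were for HLA-DRB1, HLA-DPB1 and CD74, which were not called. The share of all tested genes with this separation was not counted. The CIITA difference was -0.28 (YAE1 minus ABCE1, limma adjusted p = 0.022), in a comparison where 18.7% of all tested genes were called lower. Over the 15 alternatives the difference ranged from -0.34 to -0.21 and its limma adjusted p from 0.001 to 0.12, and 4 of the 15 did not pass. With 2 libraries per group, outlying samples could not be looked for.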

How the results depend on the processing

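Against control guides, the 8 genes were called higher under all 15 alternatives, with log2 changes of 0.57 to 1.19 for ABCE1 guides (largest limma adjusted p = 0.0057) and 0.50 to 1.00 for YAE1 guides (0.0082). Between YAE1 and ABCE1 guides 1 of the 8 genes, CIITA, was called. With no filter 0 were called in limma (1 at an unadjusted p under 0.05) among 2091 genes called in all against 4279, with voom on recovered fragments 1 (2786 of all 12578 tested genes lower), and with quantile normalization 4 (1993 of 12578 lower), where HLA-DRA reversed to -0.30; the cause was not tested. Leaving out each library in turn gave 0 to 1 of the 8 (1 to 3 at an unadjusted p under 0.05), and 1811 to 3721 genes in all, with the lowest counts without ABCE1 replicate 1 (1811) and ABCE1 replicate 2 (1963); the cause was not tested. For ABCE1 guides 7278 genes were called in all and 4761 under the filter at a mean of 5 FPKM, where fewer genes are tested. By size, 1695 were higher by at least 1.5-fold with ABCE1 guides and 1169 with YAE1 guides, and 561 and 518 genes were called in the class of at least 50 FPKM. Of all calls 64.8% were higher with ABCE1 guides and 66.0% with YAE1 guides, against 45.5% and 49.1% after centring and 49.0% and 52.2% with quantile normalization; between YAE1 and ABCE1 guides the share was 45.1%, and 56.0% after centring.

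Same-numbered replicates did not deviate together (r = -0.053, -0.0133 and -0.00926 across genes for the 3 pairs of groups). These values show no pairing by number, but whether same-numbered libraries share a culture or batch is not in the labels. With the replicate block 7058, 6264 and 3778 genes were called in the 3 comparisons against 7278, 6517 and 4279, and 8, 8 and 1 of the 8 genes as before. Depth limits HLA-DMB most, with 241.5 fragments in its lowest library. Where 1 library of a group was left out, the other was assumed to vary like the rest.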

Other observations

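The table lists the 6 HLA genes of the set within 34 consecutive rows, which hold 28 other identifiers. Of the 12 of these that were tested, 11 were higher and 0 lower with ABCE1 guides, and the same numbers held with YAE1 guides (limma, adjusted p under 0.05); of all tested genes 37.5% and 34.2% were higher. At least 1.5-fold higher were 8 of the 12 with ABCE1 guides and 9 with YAE1 guides, against 13.5% and 9.29% of all tested genes, and after centring on the median gene 8 in each comparison, against 8.84% and 6.66%. Their log2 changes ran from -0.014 to 1.52 with ABCE1 guides (median 0.88) and from 0.061 to 1.39 with YAE1 guides (median 0.82), at means of 1.93 to 33.2 FPKM. The stretch was looked at after the values of the 8 genes had been seen, the rows have no gene names here, and whether the order of the table follows the genome was not tested.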
